A study of Homo sapiens with 6 samples.

Results

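The D-type cyclins, their partner kinases CDK4 and CDK6 and the inhibitors of these kinases were followed as transcripts in 6 RNA-seq libraries. The study gives all of them as HCT-116, an established human colon carcinoma cell line. The members were the 10 genes whose symbol in the deposited table was CCND1, CCND2, CCND3, CDK4, CDK6, CDKN1B, CDKN2A, CDKN2B, CDKN2C or CDKN2D, out of 60546 gene identifiers. The list was chosen by pathway and by the CCND2 values of these libraries, which were known to be near 0 under one label, so every difference between the labels is given below for the members as a description and no p of a member is printed for it. Counts of members past a threshold between the labels stand beside the share of all genes and support nothing. All 10 passed the filter, which asks for 1 normalized read or more in 3 or more libraries, as did 26536 genes in all, although CCND2 passed through the Vector libraries alone.

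The cells had been infected with the viral expression vector PMSCV, either carrying GOLPH3, which encodes a Golgi phosphoprotein (HCT-116-PMSCV-GOLPH3, 3 libraries), or empty (HCT-116-PMSCV-Vector, 3 libraries). All samples carry the genotype label wild type and the treatment label Trizol, which is the lysis reagent, and all were grown in DMEM with fetal bovine serum. Whether each line was a pool or 1 clone is not given in the sources used here. The titles add a number after the letter P: the GOLPH3 libraries are P8, P12 and P13 (replicates 1, 2 and 3), and the Vector libraries are P12, P11 and P13 (replicates 1, 2 and 3). The study took the RNA from different generations of each line, but the labels do not define the P number. Since nothing says that the samples came from separate infections, p-values measure only the spread between these libraries. In bulk RNA, fewer cells of a type and less RNA per cell cannot be told apart.

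Progression through G1 is driven by D-type cyclins, which bind CDK4 or CDK6. The active kinases phosphorylate the retinoblastoma protein RB1 and so release E2F transcription factors, which switch on genes of S phase. INK4 proteins (CDKN2A, CDKN2B, CDKN2C and CDKN2D) bind CDK4 and CDK6 and block their pairing with cyclin D, while CDKN1B (p27) belongs to the CIP/KIP family, which inhibits CDK2 complexes and also helps cyclin D-CDK4 complexes to assemble. CCND1 is a well-known target of growth factor and Wnt signalling in colon epithelium.

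The deposited values are reads divided by a size factor per library, and are called normalized reads. Recovered reads totalled 15708846 to 21900764 per library, and 3 reads, the limit that a count of 0 allows, correspond to 2.47 to 3.29 normalized reads, for counting error only. The GOLPH3 transcript itself was not higher under its label, with 1629.5, 1272 and 1383 normalized reads (GOLPH3 P8, P12 and P13) against 1968, 1892 and 1472 (Vector P12, P11 and P13; log2 difference -0.31, SE 0.27, adjusted p = 0.609 in limma), so groups are named by their labels. The study reported overexpression in its HCT-116 line from protein, by western blot, and protein was not measured in these libraries. Genes typical of HEK293-like cells, given with CCND2 below, were mostly present in the Vector libraries and mostly at or near 0 in the GOLPH3 libraries. The origin of the libraries, including whether those of both labels are HCT-116, was not tested, and a difference between labels is a difference between these libraries. On all tested genes the first principal component, with 50.3% of the variance, separated the labels. The second, with 20.7%, placed GOLPH3 P8 and Vector P11 (scores 69.4 and 112.4) apart from the other 4 libraries (-61.2 to -34.3). Of 12 colon epithelial markers, EPCAM, KRT8, KRT18, KRT19, CDH1 and CDX2 were present in every library, KRT20 was at 0 in all and CDX1 had at most 1 read. CDH17, VIL1, LGALS4 and CEACAM5 were low, with at most 9.66, 3.3, 5.37 and 10.29 normalized reads in any library. The summed epithelial markers were 62851 to 134424 normalized reads in the GOLPH3 libraries and 30024 to 41155 in the Vector libraries. Nearly all of this sum was KRT8, KRT18, KRT19 and EPCAM. CDX2 ran the other way, with overlapping groups and means of 289 ± 60 in the GOLPH3 and 499 ± 364 in the Vector libraries (SD, n = 3 each). Summed fibroblast markers came to 825 to 1517 and 488 to 810, nearly all of it COL1A1, while DCN was at 0 throughout and COL1A2 was near 0. LUM and PDGFRA were near 0 in the GOLPH3 libraries but reached 8.76 and 24.89 normalized reads in the Vector libraries. Summed markers of endothelium (24.7 to 44.0 against 23.7 to 34.3) and blood (0.8 to 21.3 against 21.9 to 57.5) were low, with CD3E at 0 throughout.

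Upstream sequence is shown for CDK4, CDKN2A and CDKN2C, because the first 2 were lowest in the P8 and P11 libraries and the last differed between P12 and P13 (both below), and because CDK4 and CDKN2C hold every E-box found. The windows are the 250 bases before a RefSeq start site in GRCh38.p14, written 5′ to 3′ on the gene's strand. Capitals mark the E-box CACGTG and the GC box GGGCGG (or its complement CCGCCC), both searched on either strand. CDKN2A has start sites for 2 products, p14ARF from the upstream site and the INK4 protein p16 from the downstream site, and the gene table counts both as 1 gene. A CDKN2C site between the 2 shown is left out.
CDK4, chr12:57752311-57752560, minus strand: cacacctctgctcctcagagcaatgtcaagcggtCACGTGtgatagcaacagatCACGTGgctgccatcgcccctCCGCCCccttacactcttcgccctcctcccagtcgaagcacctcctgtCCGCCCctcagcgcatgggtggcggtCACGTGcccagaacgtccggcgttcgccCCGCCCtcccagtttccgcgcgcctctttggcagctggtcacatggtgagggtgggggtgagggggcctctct
CDKN2A upstream site, chr9:21995325-21995574, minus strand: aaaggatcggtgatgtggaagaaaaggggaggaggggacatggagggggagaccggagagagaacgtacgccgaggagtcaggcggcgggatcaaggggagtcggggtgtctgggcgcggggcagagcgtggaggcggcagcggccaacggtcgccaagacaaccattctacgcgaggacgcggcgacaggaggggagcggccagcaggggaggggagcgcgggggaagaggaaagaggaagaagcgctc
CDKN2A downstream site, chr9:21974858-21975107, minus strand: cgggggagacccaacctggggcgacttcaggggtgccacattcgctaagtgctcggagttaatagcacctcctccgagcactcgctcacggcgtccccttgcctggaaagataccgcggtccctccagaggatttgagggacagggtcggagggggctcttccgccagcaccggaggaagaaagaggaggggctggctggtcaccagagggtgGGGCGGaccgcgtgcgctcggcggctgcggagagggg
CDKN2C upstream site, chr1:50960495-50960744, plus strand: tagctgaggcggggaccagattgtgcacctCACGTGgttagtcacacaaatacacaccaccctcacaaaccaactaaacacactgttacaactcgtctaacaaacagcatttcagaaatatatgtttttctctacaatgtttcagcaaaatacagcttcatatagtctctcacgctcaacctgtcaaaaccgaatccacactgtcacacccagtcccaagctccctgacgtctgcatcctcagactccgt
CDKN2C downstream site, chr1:50969995-50970244, plus strand: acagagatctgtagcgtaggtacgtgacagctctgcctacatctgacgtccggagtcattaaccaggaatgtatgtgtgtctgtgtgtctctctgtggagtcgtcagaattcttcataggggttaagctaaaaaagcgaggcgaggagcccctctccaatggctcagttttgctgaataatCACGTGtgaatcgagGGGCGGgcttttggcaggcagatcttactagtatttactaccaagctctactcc

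The promoter table matched 8 of the 10 members with 14 windows; CCND1 and CCND2 were not matched. CACGTG, the letters bound by MYC, MAX and USF factors among others, occurred in 3 of the 14 windows, against 6.34% of all 35116 windows of that length. CDK4 held 3 copies and each of the 2 CDKN2C windows shown held 1. GGGCGG occurred in 10 of the 14 windows, at least 1 for each of the 8 matched genes, against 42.6% of all windows. The cyclic AMP element TGACGTCA (1.65% of all windows), the E2F motifs TTTGGCGC (0.55%) and TTTCCCGC (1.39%) and the TATA box TATAAA (10.7%) were in 0 of the 14, again on both strands. The windows of CDK4 and CDKN2A held 19, 24 and 20 CG dinucleotides, against a median of 11 over all windows, and the 2 CDKN2C windows shown held 7 and 10. The CDKN2C window that is left out, chr1:50968456-50968705, held 35 CG dinucleotides and 5 GC boxes, with more CG than 94.2% of all windows. A match of letters is a description of the sequence and not a binding site.

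The members covered a wide range of transcript levels. Normalized reads per kb of annotated exon put CCND1 first, with a median of 2334 over the 6 libraries (range 1330 to 3535), and CDK4 second, with 603 (295 to 816). CDKN1B (median 230, range 148 to 288), CDK6 (203, 108 to 410), CCND3 (184, 98.4 to 264) and CDKN2A (170, 82.3 to 264) followed, with ranges that overlapped each other. CDKN2D (91.7, 67.8 to 298), CDKN2C (44.3, 15.9 to 183), CDKN2B (41.0, 32.4 to 67.3) and CCND2 (24.5, 0 to 108) came last, and their ranges overlapped too. The CCND2 median lies between its label groups, at 0 to 0.3 in the GOLPH3 libraries and 48.7 to 108 in the Vector libraries. In the Vector libraries its mean of 84.4 was above the 41.0 of CDKN2B, so its last place does not hold there. The range of CCND1 alone did not touch that of its next neighbour.

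**Figure D1:**
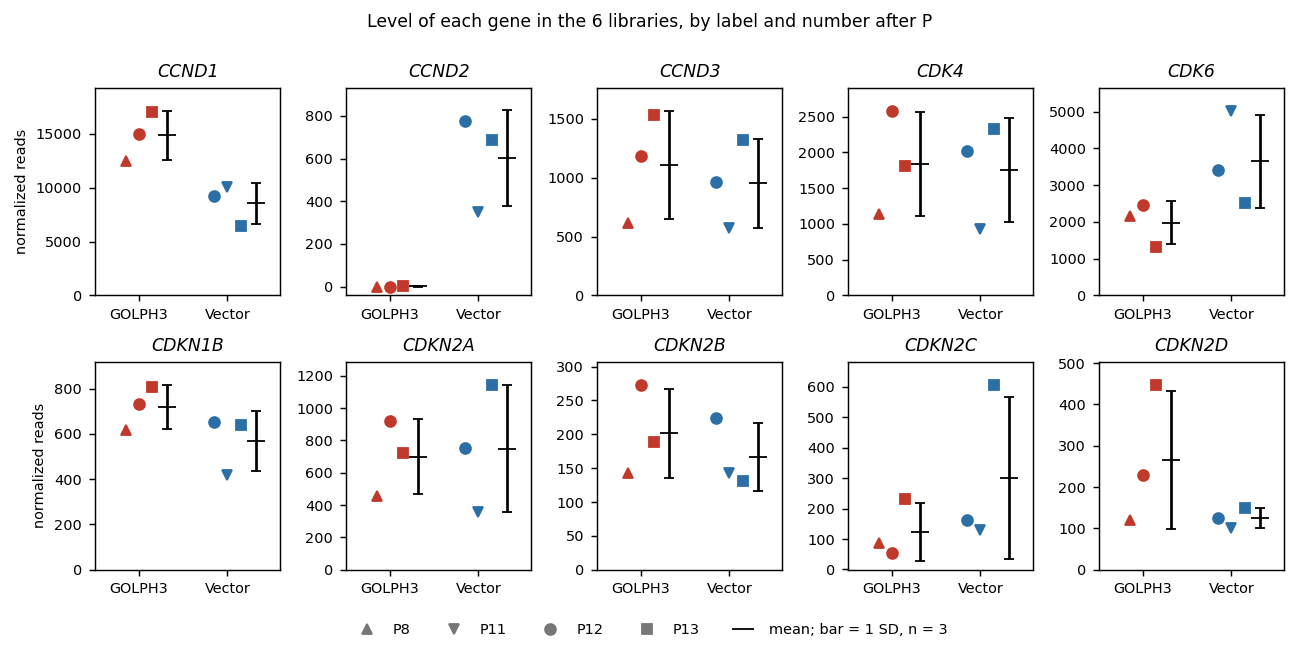
Level of each of the 10 members in the 6 libraries, in normalized reads on linear axes that differ between panels. Red symbols are GOLPH3 libraries, blue symbols Vector libraries, the symbol shape gives the P number, and the black line and bar are the mean and SD of 3 libraries. CCND2 lies at 0 to 2.13 in the GOLPH3 libraries and at 348 to 776 in the Vector libraries, while CCND3, CDK4 and CDKN2A are lowest in the P8 and P11 libraries under both labels.

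CCND1 (ENSG00000110092) encodes cyclin D1 and lies at chr11:69641087-69654474 on the plus strand in the GENCODE 29 annotation of GRCh38, from which all gene positions here are taken. It had 12489, 15024 and 17074 normalized reads in GOLPH3 P8, P12 and P13, and 9246, 10058 and 6426 in Vector P12, P11 and P13. Every GOLPH3 library was above every Vector library. The means were 14862 ± 2297 and 8577 ± 1906 (SD, n = 3 each), a log2 difference of 0.81 (SE 0.30, 95% interval 0.16 to 1.46). The difference was 0.70 within the P12 pair, 1.41 within the P13 pair and 0.31 between P8 and P11. LTO1 overlaps the 3′ end of CCND1 on the opposite strand, and its 208 to 745 normalized reads were at most a small part of the CCND1 values. Reads of overlapping genes on opposite strands cannot be told apart here, because the strand setting of the counting is not given in the sources used here.

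CCND2 (ENSG00000118971, chr12:4273772-4305350, plus strand) encodes cyclin D2. It had 0, 0 and 2 reads in GOLPH3 P8, P12 and P13, against 754, 318 and 801 reads in Vector P12, P11 and P13. In normalized reads these were 0, 0 and 2.13 against 776, 348 and 687. All GOLPH3 libraries were thus under the limit of 3 reads, and the Vector libraries differed among themselves by 2.23 times, with P11 lowest. Set against 3 reads per library, CCND2 was 188-fold lower than the Vector mean, and 108-fold lower than the lowest Vector library. For GOLPH3 P8 and P12, with 0 reads, these folds are lower limits. GOLPH3 P13 had 2 reads, for which counting error allows more than 3, so they are not lower limits there. The antisense gene CCND2-AS1 was at 0 in every GOLPH3 library and had 6.18, 0 and 9.44 normalized reads in Vector P12, P11 and P13, so its groups overlapped and it did not pass the filter.

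The presence of CCND2 reads went with reads from other genes. In 174 genes, 0.656% of those tested, every GOLPH3 library had at most 3 reads and every Vector library at least 50 normalized reads. Of these genes, 155 had their lowest Vector value in P11, as CCND2 did. The genes were picked by a pattern that CCND2 itself shows. The share of all genes with their lowest Vector value in P11 is not given, so this count is a description only. The genes with the profile most like that of CCND2, by the root mean square difference of centred log2 levels over the 6 libraries, included POU4F1 (0.44), IGFBPL1 (0.53), ZEB2 (0.56) and TMEM47 (0.57). POU4F1 encodes a neuronal POU-domain transcription factor and ZEB2 a zinc-finger repressor of CDH1. A list of 8 genes typical of HEK293-like cells (IRS4, PAX2, LHX1, NEFL, NEFM, UCHL1, CDH2 and ROBO1), itself chosen with these data known, summed to 115 to 136 normalized reads in the GOLPH3 libraries and 3989 to 12248 in the Vector libraries, and 7 of the 8, all but PAX2, had at most 3 reads in every GOLPH3 library. Of these, LHX1 was near 0 in the Vector libraries too, with 3.09, 1.1 and 2.57 normalized reads in Vector P12, P11 and P13. The part of this list in the CCND2 difference was not tested.

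CCND3 (ENSG00000112576, chr6:41934933-42050357, minus strand) encodes cyclin D3 and gave a different picture. It had 618, 1180 and 1530 normalized reads in GOLPH3 P8, P12 and P13, and 960, 571 and 1321 in Vector P12, P11 and P13. The label groups overlapped, and the lowest library of each was P8 or P11. The log2 difference between the labels was 0.21 (SE 0.40, 95% interval -0.67 to 1.08).

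CDK6 (ENSG00000105810, chr7:92604921-92836594, minus strand), the kinase that can replace CDK4 as a partner of cyclin D, was lower in all GOLPH3 libraries than in any Vector library. It had 2165, 2455 and 1327 normalized reads in GOLPH3 P8, P12 and P13, against 3404, 5028 and 2526 in Vector P12, P11 and P13. The means were 1982 ± 586 and 3653 ± 1270 (SD, n = 3 each), a log2 difference of -0.87 (SE 0.34, 95% interval -1.61 to -0.13). The difference had the same sign in each pair, at -0.47 within P12, -0.93 within P13 and -1.22 between P8 and P11.

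CDK4 (ENSG00000135446, chr12:57747727-57756013, minus strand) had 1135, 2585 and 1807 normalized reads in GOLPH3 P8, P12 and P13, and 2015, 933 and 2321 in Vector P12, P11 and P13. The groups overlapped almost fully, and the log2 difference was 0.09 (SE 0.40, 95% interval -0.78 to 0.97). TSPAN31 (178 to 313 normalized reads) and MARCHF9 (248 to 845) overlap CDK4 on the opposite strand.

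Among the inhibitors, CDKN2C (p18, ENSG00000123080, chr1:50960745-50974633, plus strand) had the widest range of the members other than CCND2, its highest library being 11.5 times its lowest. It had 85.9, 52.8 and 233 normalized reads in GOLPH3 P8, P12 and P13, and 164, 130 and 607 in Vector P12, P11 and P13. The label groups overlapped through GOLPH3 P13, and the log2 difference was -1.20 (SE 0.63, 95% interval -2.57 to 0.18). Within each pair the GOLPH3 library was the lower, by -1.61 within P12, -1.38 within P13 and -0.60 between P8 and P11.

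CDKN2D (p19, ENSG00000129355, chr19:10566462-10569059, minus strand) ran the other way, with 120, 229 and 447 normalized reads in GOLPH3 P8, P12 and P13 and 126, 102 and 150 in Vector P12, P11 and P13. GOLPH3 P8 lay among the Vector libraries. The log2 difference was 0.89 (SE 0.46, 95% interval -0.11 to 1.89), made up of 0.86 within P12, 1.57 within P13 and 0.24 between P8 and P11.

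CDKN2A (ENSG00000147889, chr9:21967753-21995301, minus strand) had 457, 919 and 724 normalized reads in GOLPH3 P8, P12 and P13, and 751, 356 and 1143 in Vector P12, P11 and P13. Its label means of 700 ± 232 and 750 ± 394 (SD, n = 3 each) differed by less than either SD. CDKN2B (p15, ENSG00000147883, chr9:22002903-22009363, minus strand), the neighbouring INK4 gene, had 143, 273 and 189 against 224, 144 and 131, a log2 difference of 0.27 (SE 0.38). CDKN2B-AS1, the long antisense RNA that overlaps both genes, had 67.6, 40.4 and 26.7 normalized reads in GOLPH3 P8, P12 and P13, and 93.7, 122 and 66.1 in Vector P12, P11 and P13.

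CDKN1B (ENSG00000111276, chr12:12715058-12722371, plus strand) varied least among the members, its highest library being 1.94 times its lowest. It had 615, 731 and 809 normalized reads in GOLPH3 P8, P12 and P13 and 651, 416 and 640 in Vector P12, P11 and P13. Only GOLPH3 P8 fell within the Vector range. The log2 difference was 0.36 (SE 0.30, 95% interval -0.30 to 1.02). Annotated pseudogene copies of CCND2, CCND3 and CDK4 (CCND2P1, CCND3P1, CCND3P2 and CDK4P1) were listed at 0 in every library.

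Of the 10 members, 3 had label groups that did not overlap (CCND1 higher, CCND2 and CDK6 lower under GOLPH3), where 22.0% of all genes tested had such groups (9.20% higher and 12.8% lower). CCND2 was the single member with an adjusted p under 0.05 between the labels in limma, where 5.07% of all genes passed (0.953% higher and 4.12% lower). With the P pairs as a block, 5 members passed (CCND1 and CDKN2D higher, CCND2, CDK6 and CDKN2C lower), beside 20.9% of all genes (9.43% higher and 11.5% lower). That block has P12, P13 and, as its remaining level, P8 with P11, which share no number. The difference had 1 sign within P12, within P13 and between P8 and P11 for 7 members, beside 50.2% of all genes. The rule for the members used this contrast, so these counts support nothing further. The median log2 difference of the members was 0.15, against 0.02 over all genes.

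**Figure D2:**
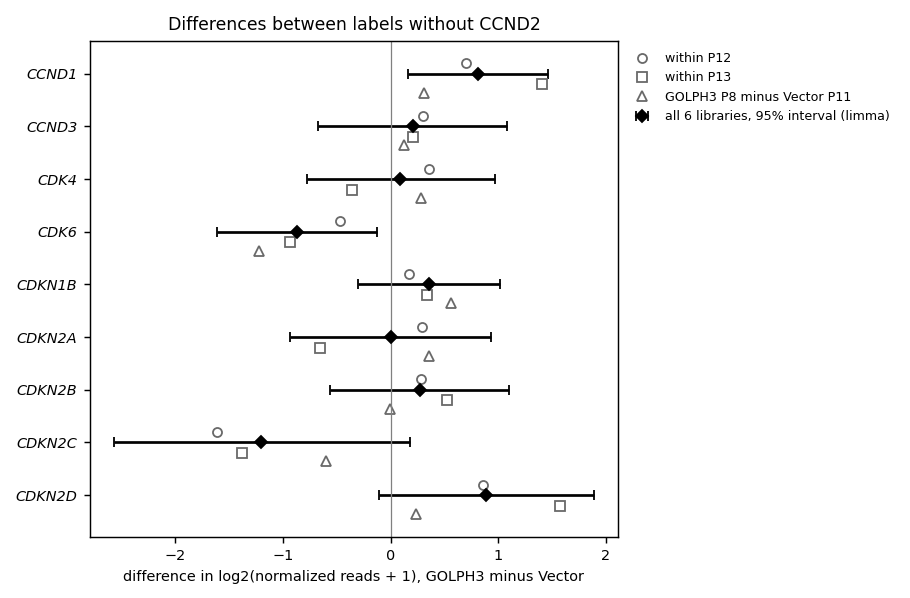
Log2 difference in normalized reads + 1 between the GOLPH3 and Vector libraries for each member except CCND2, whose fitted value depends on the pseudocount, with the fitted value and its 95% interval and the values within the P12 pair, within the P13 pair and between P8 and P11. CCND1 and CDK6 lie on 1 side of 0 in all 3 pairs, and CDK4 and CDKN2A change side between P12 and P13.

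Because the members work as families, their levels per kb of exon were also summed by role. The 3 D-type cyclins together came to 2692, 3314 and 3799 in GOLPH3 P8, P12 and P13, and to 2188, 2229 and 1654 in Vector P12, P11 and P13. Their means were 3268 ± 555 and 2024 ± 321 (SD, n = 3 each), and the groups did not overlap, with or without CCND2 in the sum (1940 ± 334 in Vector without it). CCND1 made up 93.1% to 96.0% of this sum in the GOLPH3 libraries and 80.4% to 93.4% in the Vector libraries. CCND2 made up at most 0.01% in the former and 4.96%, 2.18% and 5.81% in Vector P12, P11 and P13.

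The 2 kinases together came to 535, 1016 and 679 per kb in GOLPH3 P8, P12 and P13, and to 914, 705 and 939 in Vector P12, P11 and P13. CDK4 supplied 67.0%, 80.3% and 84.1% of that sum in the former and 69.6%, 41.8% and 78.1% in the latter. Vector P11 was the single library in which CDK6 exceeded CDK4 per kb, with a CDK4 to CDK6 ratio of 0.72 against 2.03 to 5.27 in the other 5.

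The INK4 sum came to 247, 448 and 581 per kb in GOLPH3 P8, P12 and P13, and to 362, 225 and 579 in Vector P12, P11 and P13. It was lowest in P8 and P11, and the label means of 425 ± 169 and 389 ± 179 (SD, n = 3 each) differed by less than either SD. Its make-up differed, since CDKN2C supplied 3.55% to 12.1% in the GOLPH3 libraries and 13.6% to 31.6% in the Vector libraries, while CDKN2D supplied 32.4% to 51.2% and 17.3% to 30.2%. Neither share overlapped between the labels, although the levels of both genes did, and shares of the same sum depend on each other. Label groups did not overlap for 22.0% of all genes tested, and the rule for the members used this contrast, so the shares support nothing further. CDKN2A supplied 28.8% to 48.0% over all 6 libraries.

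**Figure D3:**
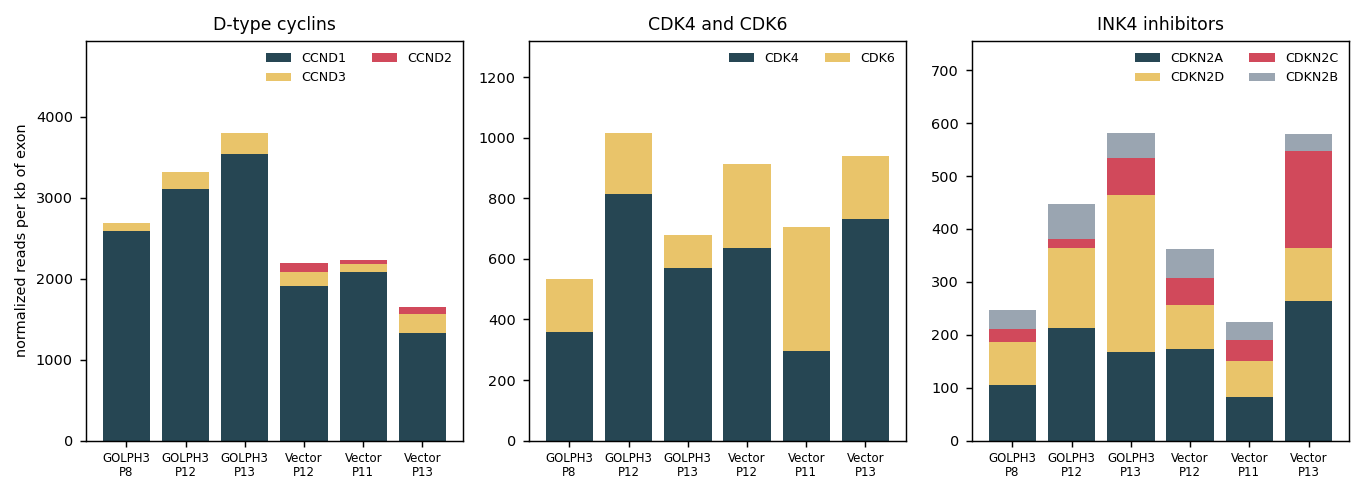
Stacked normalized reads per kb of exon for the D-type cyclins, for CDK4 with CDK6 and for the INK4 genes in each of the 6 libraries, on linear axes that start at 0. The cyclin bars reach 2692 to 3799 in the GOLPH3 libraries and 1654 to 2229 in the Vector libraries, with CCND1 as the main part of each, and the INK4 bars are lowest in the P8 and P11 libraries.

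P12 and P13 are the numbers that occur under both labels, so the contrast between them is balanced over the labels and was not used to choose the members. It was tested with limma on all genes, with the label and the P pair as terms. CDKN2C was lower in P12 than in P13 under both labels, at 52.8 against 233 in the GOLPH3 libraries and 164 against 607 in the Vector libraries. The log2 difference was -2.00 (SE 0.32, 95% interval -2.70 to -1.31, adjusted p = 0.0115 in limma, adjusted over all genes by the Benjamini-Hochberg method), and the direction was the same under both labels. It was the 1 member that passed, where 3.40% of all genes did (1.88% higher and 1.52% lower). The call was lost without GOLPH3 replicate 2 (adjusted p = 0.33), without Vector replicate 3 (0.0524) and with a pseudocount of 0.1 (0.0503), and the adjusted p ran from 8.66e-07 to 0.33 over all alternatives.

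The other 9 members did not pass between P12 and P13. CDK6 had a log2 difference of 0.66 (SE 0.20, 95% interval 0.22 to 1.10, adjusted p = 0.102 in limma), being higher in P12 under the Vector and the GOLPH3 label, and passed with DESeq2 (adjusted p = 0.0384) and with the P12 and P13 libraries alone in limma (adjusted p = 0.0171). It also passed in limma without GOLPH3 replicate 1 (adjusted p = 0.0172) and without Vector replicate 2 (adjusted p = 0.0173). CDKN2B had 0.65 (SE 0.28, adjusted p = 0.238 in limma) and CCND3 -0.42 (SE 0.19, adjusted p = 0.258 in limma). Groups did not overlap for CDKN2B (higher in P12), CCND3 and CDKN2C (lower in P12), 3 of 10 members beside 34.3% of all genes (16.8% higher and 17.6% lower). The remaining 6 had adjusted p of 0.368 to 0.921 in limma, and their 95% intervals all included 0.

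The 2 libraries that stand apart on the second component, GOLPH3 P8 and Vector P11, were then set beside the other 4. This division was chosen after the levels had been seen and carries no p. The SEs and intervals given for it describe spread only and are no support for a difference. CCND3 averaged 595 normalized reads in P8 and P11 and 1248 in P12 and P13, a log2 difference of 1.05 with the label held fixed (SE 0.16, 95% interval 0.70 to 1.40). CDK4 averaged 1034 and 2182, a log2 difference of 1.07 (SE 0.18), and CDKN2A 407 and 884, a log2 difference of 1.11 (SE 0.22). In each of these genes both P8 and P11 lay below all 4 other libraries. The log2 differences stayed within 0.97 to 1.12, 0.90 to 1.24 and 0.83 to 1.38 in the same order under the 11 alternatives computed for them, which were a pseudocount of 0.1, quantile normalization, scaling to genes not encoded by mitochondria, edgeR, DESeq2 and each library left out in turn.

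CDKN2D (log2 difference 0.92, SE 0.29) and CDKN1B (0.48, SE 0.18) were also lower in both P8 and P11 than in any other library. These were 5 of 10 members, beside 11.2% of all genes that were lower in P8 and P11 without overlap and 12.3% that were higher. CDK6 had a difference of -0.52 (SE 0.18) with overlapping groups, and CCND1 one of -0.01 (SE 0.21). The P number and the place on the second component go together in these libraries and cannot be told apart. Mitochondrial genes took 9.97% and 9.88% of the reads in P8 and P11, and 4.41%, 9.75%, 7.08% and 4.71% in GOLPH3 P12, GOLPH3 P13, Vector P12 and Vector P13. Their part was not tested beyond scaling to the other genes, which is included in the ranges just given.

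**Figure D4:**
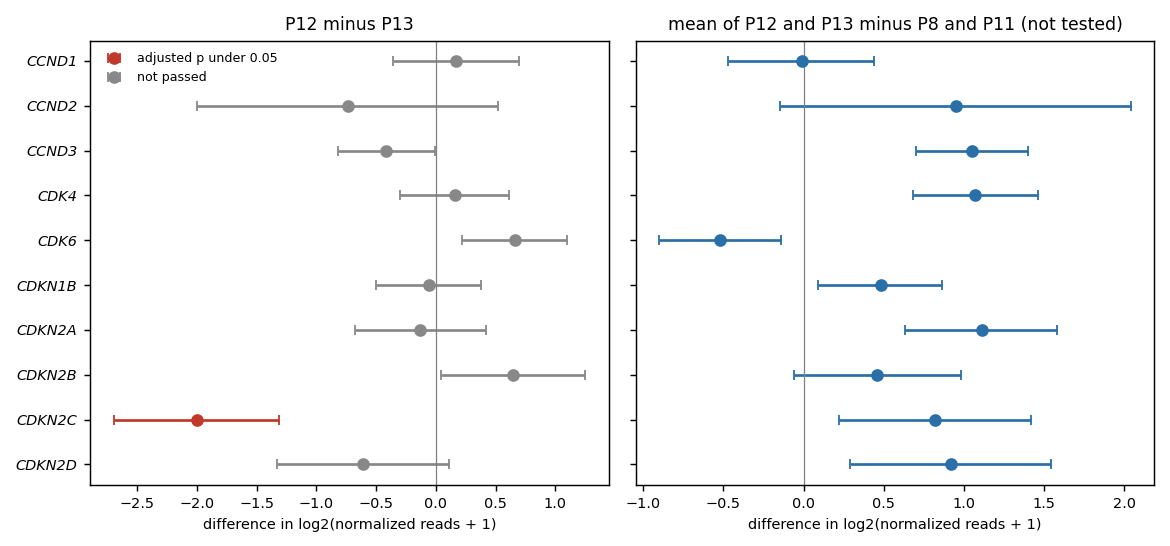
Log2 differences of the members between P12 and P13 (left) and between the mean of P12 with P13 and P8 with P11 (right), from the fit with label and P pair, with 95% intervals. Red marks an adjusted p under 0.05 on the left, which holds for CDKN2C at -2.00, and on the right, where nothing was tested, CCND3, CDK4 and CDKN2A lie at 1.05 to 1.11 and CCND1 at -0.01.

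Genes that act with the members were taken from 7 lists with 96 genes tested. Between the labels 3 were lower and 0 higher by limma, beside 4.12% and 0.953% of all genes. At an unadjusted p under 0.05 in limma, 17 were lower and 3 higher. The share of all genes under that unadjusted limit is not given, so the unadjusted counts here and below are a description only. Of the list genes, edgeR called 3 lower and 0 higher, beside 1113 of all 16908 genes in either direction. DESeq2 called 6 lower and 1 higher, beside 1991 of 36340 genes. When both P12 libraries were left out, 0 list genes passed. Without Vector replicate 1 or without Vector replicate 3, 1 passed, and without GOLPH3 replicate 1, 5 passed. The filter was applied again in each of these fits. LEF1, at 0 in every GOLPH3 library, was therefore not tested where a Vector library was left out, and its call was not lost there. With the P pairs as a block 16 were higher and 25 lower, beside 9.43% and 11.5% of all genes.

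SKP2, the F-box protein that targets p27 for degradation, was the 1 of 16 genes of cyclin D and p27 turnover that passed, being lower. At an unadjusted p under 0.05 in limma, 3 of these genes were lower and 0 higher. SKP2 levels were 977, 286 and 571 normalized reads in GOLPH3 P8, P12 and P13 against 1764, 2033 and 1916 in Vector P12, P11 and P13, a log2 difference of -1.81 (SE 0.40, adjusted p = 0.0188 in limma). The transcript of its substrate CDKN1B had overlapping groups, as given above, and p27 protein was not measured in these libraries. LEF1, a Wnt pathway transcription factor that binds the CCND1 promoter, was the 1 of 17 regulators of D-type cyclin genes that passed, being lower. At an unadjusted p under 0.05 in limma, 3 of these regulators were lower and 1 higher. LEF1 had 0 reads in every GOLPH3 library against 385, 140 and 452 normalized reads in Vector P12, P11 and P13, which is at least 101-fold lower with 3 reads per library as the limit. Like CCND2 it passed the filter through the Vector libraries alone, so its call (adjusted p = 5.8e-06 in limma) is no evidence beyond these levels. CCND1 was higher in these GOLPH3 libraries than in any Vector library, as given above, and a link between LEF1 and CCND1 levels was not tested.

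Among 13 RB and E2F genes the median log2 difference was -0.44, with 2 positive, and 1 was lower at an unadjusted p under 0.05. RB1 had a mean of 1030 ± 310 normalized reads in the GOLPH3 and 1549 ± 520 in the Vector libraries (SD, n = 3 each), RBL1 had a log2 difference of -0.95 (adjusted p = 0.123 in limma) and E2F4 one of 0.54 (adjusted p = 0.34 in limma). Among 14 other cyclins and kinases the median was also -0.44, with 2 positive and 3 lower at an unadjusted p under 0.05. CDC25A, a phosphatase that activates CDK2, had -0.98 (adjusted p = 0.0862 in limma) and CCNA1 -1.90 (adjusted p = 0.133 in limma). The 20 E2F targets had a median of -0.43 with 3 positive. The median over all genes was 0.02.

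The remaining CIP/KIP inhibitors were high in libraries of different kinds. CDKN1A (p21), a p53 target, had 5802, 13132 and 9892 normalized reads in GOLPH3 P8, P12 and P13 and 6688, 3029 and 4642 in Vector P12, P11 and P13, a log2 difference of 1.00 (SE 0.38, adjusted p = 0.182 in limma). CDKN1C (p57) had 16.1, 60.2 and 241 against 29.9, 6.57 and 57.5 (log2 difference 1.40, SE 0.92, adjusted p = 0.48 in limma). In both genes P8 and P11 were the lowest library of their label. The 14 regulators of INK4 genes had a median of 0.10 between the labels, and at an unadjusted p under 0.05 there was 1 higher and 1 lower gene. RNF2, a Polycomb ubiquitin ligase, had -0.89 (adjusted p = 0.143 in limma), and ID1, an inhibitor of basic helix-loop-helix factors, had 0.96 (adjusted p = 0.215 in limma).

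Between P12 and P13, 5 of the 96 list genes were higher in P12 and 4 lower by limma, beside 1.88% and 1.52% of all genes. E2F7, a repressor among the E2F factors (log2 difference 0.94, adjusted p = 0.0308 in limma), CCNH, a subunit of the CDK-activating kinase (0.83, 0.0421), and ETS1, a transcription factor downstream of ERK signalling (2.01, 0.0182), were higher. KDM6B, which removes the Polycomb mark from the INK4 locus (1.02, adjusted p = 0.0182 in limma), and BMI1, a Polycomb repressor of CDKN2A (0.80, 0.0402), were higher as well. MCM5 of the replicative helicase (-1.01, adjusted p = 0.0182 in limma), EGR1 (-0.86, 0.0402), the Polycomb reader CBX8 (-1.08, 0.0291) and ID1 (-0.98, 0.0427) were lower. CDKN2A itself had -0.13 (SE 0.25, 95% interval -0.68 to 0.42). The 9 calls became 0 with a pseudocount of 0.1 and 0 without GOLPH3 replicate 2, 2 without Vector replicate 1 and 23 without GOLPH3 replicate 1 or without Vector replicate 2.

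Neighbouring genes were listed within 500 kb of 3 members. Around CCND2, 14 genes were tested and 2 were lower under GOLPH3, beside 4.12% of all genes, namely PARP11 (log2 difference -1.63, adjusted p = 0.0479 in limma) and RAD51AP1, a recombination factor (-1.48, adjusted p = 0.0206 in limma). TIGAR, which encodes a fructose bisphosphatase and begins 2413 bases from CCND2, had 328, 242 and 169 normalized reads in GOLPH3 P8, P12 and P13 and 297, 323 and 199 in Vector P12, P11 and P13, a log2 difference of -0.17 (SE 0.36, 95% interval -0.96 to 0.62). The near absence of reads thus covered CCND2 but not the next expressed gene.

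Around CCND1, 12 genes were tested and 2 were higher, beside 0.953% of all genes, namely FGF19, a growth factor of the FGF family (1.89, SE 0.42, adjusted p = 0.0214 in limma), and ANO1, a calcium-activated chloride channel (1.48, SE 0.29, adjusted p = 0.00874 in limma). Both lie, with CCND1, on chr11 and have GOLPH3 groups wholly above the Vector groups. MYEOV, on the other side, had 0.94 (adjusted p = 0.206 in limma), and LTO1, which overlaps CCND1, had 0.52 (adjusted p = 0.555 in limma). Around CDKN2A 14 genes were tested. By limma 0 of them passed, with 1 at an unadjusted p under 0.05, and by edgeR and DESeq2 0 passed as well. MTAP, which encodes an enzyme of methionine salvage, had 0.02 (SE 0.35, 95% interval -0.75 to 0.80).

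**Figure D5:**
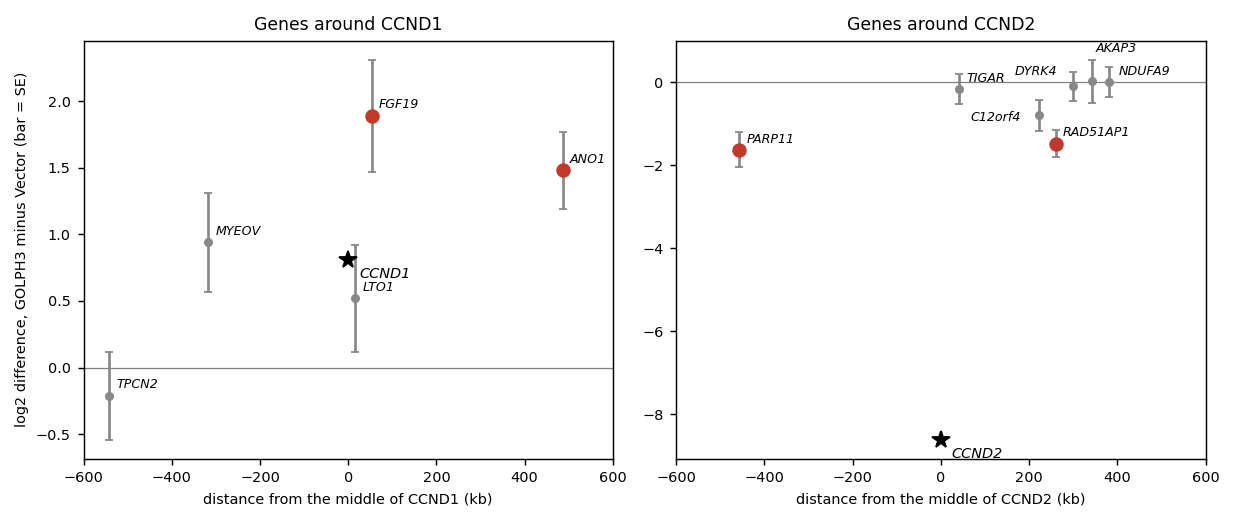
Log2 difference between the labels, with its SE, for genes with their nearer end within 500 kb of CCND1 (left) and CCND2 (right) that had at least 50 normalized reads in some library, against the distance in kb between gene midpoints. The star is the member and red marks an adjusted p under 0.05. FGF19 and ANO1 lie above CCND1 at 1.89 and 1.48, while TIGAR lies at -0.17 beside CCND2, whose own fitted value depends on the pseudocount.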

How the data were processed

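Total RNA of 6 samples, given by the study as HCT-116, was sequenced. The authors deposited 1 value per gene and library, which the submitters' processing notes tie to fastp 0.20.0, HISAT2 2.1.0, featureCounts 1.6.1, Cufflinks and DESeq2 on GRCh38. The deposited signal was a whole multiple of 1 step per library (100.0% of nonzero values within 0.05 of a step, steps of 0.8246 to 1.0955), so reads were recovered by division. The table had 60590 rows, 44 of them repeats of an identifier, which were summed, and 96.4% of identifiers were in GENCODE 29. No 2 libraries of a label agreed within counting noise (chi-square per degree of freedom at least 74.92).

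limma 3.58.1 (R 4.3.3, mean-dependent prior variance) was fitted to log2(value + 1) for genes reaching 1 in 3 or more libraries, with Benjamini-Hochberg adjustment over all of them, a scale that understates the change of low genes. Labels were compared without covariates, and P12 with P13 in a fit with label and P pair (P8 with P11 as a further level). The division of P8 with P11 from the rest was added after the values were seen. The members, lists and tests were chosen with earlier results of these data known. The genes named are the 10 members, GOLPH3, list genes that passed (at most 5 by p, otherwise the 2 with the smallest p), overlapping genes with a read, and the 5 genes most like CCND2. RB1 and the genes within 500 kb of CCND1, CCND2 and CDKN2A were named after their values were seen. A few results that this rule selects are not reported here.

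Alternatives were a pseudocount of 0.1, no filter, a value of at least 1 in every library, quantile normalization, scaling to genes not encoded by mitochondria, edgeR 4.0.16 and DESeq2 1.42.0 on the recovered reads, each library left out, the replicate number or the P pair as a block, and subsets by P number. Libraries with the same replicate number had deviation correlations of -0.232, -0.151 and 0.259 over 26536 genes, the last being the P13 pair, so the numbers did not pair the libraries throughout. The P12 and P13 pairs had 0.256 and 0.259, and GOLPH3 P8 with Vector P11, which share no number, had 0.331. The steps were tested on simulated data. Promoters are RefSeq windows in GRCh38.p14.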

Additional observations from a re-analysis of the deposited data

Results flagged for a closer look

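CDK4 and CDKN2A had label differences of opposite sign in the P12 and P13 pairs, in which every pair holds 1 library of each label. For CDK4 the log2 difference between GOLPH3 and Vector was 0.36 within P12 and -0.36 within P13. For CDKN2A it was 0.29 within P12 and -0.66 within P13. With 1 library per label in each pair, the difference between the pairs was not tested.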

How the results depend on the processing

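Between the labels, 1346 genes, 1 member (CCND2) and 3 list genes passed by limma. Requiring a value of at least 1 in every library gave 405 genes and 0 members, since that filter removes CCND2. DESeq2 gave 7 list genes. The P pairs as a block gave 5549 genes, 5 members and 41 list genes, and leaving out both P12 libraries gave 256 genes and 0 list genes. With each library left out in turn, the counts ran from 459 (without Vector replicate 1) to 1528 genes, stayed at 1 member and ran from 1 to 5 list genes. Without Vector replicate 3, 481 genes passed. In all of these fits with libraries left out, the filter was applied again. Genes at 0 in every GOLPH3 library, such as LEF1, were thus not tested where a Vector library was left out. The lower counts there include such untested genes and do not show that their calls were lost. The replicate block, whose numbers pair only the replicate 3 libraries (both P13), gave 1081 genes, 1 member and 3 list genes.

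Between P12 and P13, 903 genes, 1 member (CDKN2C) and 9 list genes passed. A pseudocount of 0.1 gave 84 genes, 0 members and 0 list genes, no filter gave 1585 genes and 15 list genes, quantile normalization 377 and 2, and scaling to genes not encoded by mitochondria 472 and 3. DESeq2 gave 1673 genes, 2 members and 19 list genes, and the P12 and P13 libraries alone gave 2868, 2 and 23. Leaving out each library gave 14 (without GOLPH3 replicate 2) to 2874 genes, 0 to 2 members and 0 to 23 list genes, with 217 genes without Vector replicate 1. The cause of these changes was not tested. No replicate block was fitted here, since the P pair is already a term.

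Of the single-gene values under the alternatives, 425 kept their side of the threshold or moved by less than the spread between libraries, 6 moved, 4 newly passed, 3 no longer passed and 0 changed sign with a call. The 6 were CCND2 with a pseudocount of 0.1, edgeR, DESeq2 and within each P pair, and CCND1 within P13. The 95% intervals given for the label differences come from the fit without a block, and CDKN2C and CDKN2D passed between the labels in the fit with the P pairs as a block.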
